A study of Homo sapiens with 8 samples.

Results

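Glycolysis and the hypoxia response were followed here through 38 listed genes: the enzymes that turn glucose into lactate, the carriers for glucose and lactate, regulators of glycolytic flux, the oxygen sensors and subunits of the hypoxia-inducible factor (HIF), and other genes known as HIF targets. Members were taken by symbol in the annotation of the array, and 34 of the 38 were measured among 18417 genes in all. PGAM1, SLC16A1, SLC16A3 and CA9 are not analysed here. PGAM1, the phosphoglycerate mutase, shares its probe sets with PGAM4, and no value is given for a probe set that names several genes.

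The samples were ZR-75-1 cells, an established human breast cancer line, profiled on Affymetrix arrays as untreated parental cells, as cells with an shRNA against GFP (shGFP, the vector control), and as 2 independent clones with an shRNA against EI24 (ZR-shEI24 clones 1 and 2). Each line was hybridised on 2 arrays, 8 arrays in all. All lines grew in the same serum-containing medium with no added chemical, and no label names low oxygen. Each ZR-shEI24 line is 1 clone, so what belongs to a clone and what belongs to the knockdown cannot be told apart within it. Whether the duplicate arrays of each line stem from separate cultures is not stated in the sources used here. The p-values therefore measure the spread among duplicates, which may be technical, and the small number of arrays limits the precision. The arrays read bulk RNA, in which fewer cells expressing a gene and less RNA per cell cannot be told apart.

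Glycolysis splits glucose into pyruvate in the cytosol, and lactate dehydrogenase then reduces pyruvate to lactate. Many of its steps have several enzyme forms encoded by separate genes, whose use differs between tissues and tumours. HIF is a transcription factor built from an oxygen-regulated alpha subunit and a stable partner. With oxygen, prolyl hydroxylases mark the alpha subunit for breakdown through the VHL ubiquitin ligase. Without oxygen it accumulates, binds a short DNA element and raises genes for glucose uptake, glycolysis, blood vessel growth and mitochondrial turnover. The alpha subunit is controlled mainly at the protein level, which these arrays do not read.

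Values are log2 intensities, and a difference of 1 is a 2-fold change. EI24 itself, the target of the shRNA, read 8.64 and 8.43 in clone 1, 9.25 and 9.19 in clone 2, 11.97 and 11.91 in shGFP and 12.08 and 12.09 in parental cells. It was 8.35-fold lower in the clones than in shGFP cells (log2 difference -3.06, SE 0.08, adjusted p = 8.6e-09, limma). Knockdown and control arrays stood far apart over all genes, with correlations of 0.863 to 0.880 against 0.994 to 0.998 between arrays of a line. All 10 markers of luminal breast cells were lower in the mean of the clones than in shGFP (limma, adjusted p under 0.05, log2 differences of -6.11 to -1.38), and their mean level was 8.65 to 9.02 on the clone arrays against 12.04 to 12.10 on the control arrays. All 10 were also lower in each clone alone, by -6.19 to -1.50 in clone 1 and by -6.02 to -0.43 in clone 2. In clone 2, 9 of them fell at least 2-fold, and 2 were lower in clone 1 than in clone 2. CDH1, ESR1 and PGR, the genes of E-cadherin and of the estrogen and progesterone receptors, ranked at percentile 19.9 or lower in both clones. All 10 markers of mesenchymal-like breast cancer lines were higher (3.07 to 6.20), with mean levels of 11.46 to 11.73 against 6.43 to 6.90. Markers of immune, endothelial and fibroblast cells moved little, with mean levels of 6.39 to 6.57 against 6.12 to 6.32, and 3 of 9 passed (CD14 0.89, PECAM1 0.52 and PTPRC 0.21, all higher). The shift of luminal and mesenchymal-like markers moved with every difference between clones and controls given below, and its part in them was not tested.

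Most genes of the set were higher in ZR-shEI24 cells. Of the 34 measured members, 26 were higher and 3 lower in the mean of the clones than in shGFP cells (limma, Benjamini-Hochberg adjusted p under 0.05 over all genes), where 26.8% of all genes were higher and 29% lower. The median log2 difference was 0.79 over the members and 0.08 over all genes. A change of at least 2-fold was seen for 13 members that rose and 1 that fell, against 8.69% and 9.08% of all genes. The members that fell were PFKL, PFKM and ALDOC, all glycolytic enzymes. GPI, ALDOA, TPI1, PDK1 and MXI1 did not pass.

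Each clone was also compared alone, with the shGFP arrays shared by both comparisons. Clone 1 had 27 members higher and 3 lower than shGFP, against 23% and 26.6% of all genes, and clone 2 had 25 higher and 3 lower, against 25.2% and 27.8%. Against parental cells, 24 members were higher and 6 lower, where 25.1% and 30.8% of all genes were. All 4 clone arrays lay above all 4 control arrays for 23 members and below them for 4, against 23.8% and 26.9% of all genes.

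The roles differed in how their members were spread. Among 16 measured glycolytic enzymes 10 were higher, 3 lower and 3 did not pass, with a median log2 difference of 0.31. Both measured carriers, which take up glucose, were higher. Of 3 regulators of flux 2 were higher, with a median of 1.01. All 4 genes of oxygen sensing and HIF subunits were higher, with a median of 1.05. Of the 9 other HIF targets 8 were higher and none was lower, with a median of 1.04. At an unadjusted p under 0.05 these 9 also gave 8 higher and 0 lower, both by limma and by the t-test named in the study's methods. The share of all genes at that unadjusted threshold is not given here, so these counts have no background. Against parental cells the enzymes split into 7 higher, 6 lower and 3 not passed, with a median of 0.12. All 9 other HIF targets were higher than in parental cells, with a median of 1.22. Of all genes 25.1% were higher and 30.8% lower in that comparison.

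The largest change among the enzymes was in LDHB, which encodes the H subunit of lactate dehydrogenase. LDHB read 11.90 and 11.84 in clone 1, 11.65 and 11.73 in clone 2, 6.13 and 5.86 in shGFP and 6.28 and 6.01 in parental cells. The clone arrays formed a group of their own far above all control arrays. LDHB was 55-fold higher in the clones than in shGFP (log2 difference 5.78, SE 0.11, adjusted p = 1.3e-09, limma). In shGFP and parental cells LDHB ranked at percentile 18.6 and 20.6 among all genes, so dim that background compresses differences, and the fold is a lower bound. LDHA, the M subunit and a classical HIF target, read 13.54 and 13.40 in clone 1, 13.23 and 13.22 in clone 2, 12.91 and 12.90 in shGFP and 12.59 and 12.68 in parental cells. LDHA was also higher on every clone array than on any control array, by 0.45 (SE 0.08, adjusted p = 0.00095, limma) against shGFP, a 1.36-fold difference.

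The promoters of these genes are shown because HIF binds a short core element, searched here as ACGTG or GCGTG on both strands. The windows run from 250 bases before to 50 bases after the start of the gene, 300 bases in all, from RefSeq on GRCh38.p14. Only the first window listed for a gene was searched, so any other start site of that gene is not covered. The LDHA window lies at chr11:18394313-18394612 on the plus strand and the LDHB window at chr12:21657793-21658092 on the minus strand, each printed 5′ to 3′ in the direction of the gene, with the matches in capitals. A match on the other strand reads CACGT or CACGC here.
LDHA: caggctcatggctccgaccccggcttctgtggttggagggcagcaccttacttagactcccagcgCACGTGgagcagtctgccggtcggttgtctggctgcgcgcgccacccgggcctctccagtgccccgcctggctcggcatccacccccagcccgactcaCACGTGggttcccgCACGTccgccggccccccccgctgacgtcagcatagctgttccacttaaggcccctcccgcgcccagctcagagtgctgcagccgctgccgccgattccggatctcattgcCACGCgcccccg
LDHB: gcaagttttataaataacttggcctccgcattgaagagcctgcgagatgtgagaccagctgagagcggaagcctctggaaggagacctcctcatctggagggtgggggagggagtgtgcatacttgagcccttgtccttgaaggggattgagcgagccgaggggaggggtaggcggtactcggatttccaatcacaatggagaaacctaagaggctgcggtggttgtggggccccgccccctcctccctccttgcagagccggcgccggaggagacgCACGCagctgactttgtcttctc
The LDHA window held 6 matches, counting each CACGTG on both strands, and the LDHB window 1, at position 28 after the start. The LDHA window held 29 CpG dinucleotides and that of LDHB 14. A match is a run of letters and no evidence of binding, and its part in the change of either gene was not tested.

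Phosphofructokinase, which commits sugar to glycolysis, changed in opposite directions among its 3 genes. PFKP, the platelet form, read 11.18 and 11.15 in clone 1, 11.39 and 11.31 in clone 2, 10.08 and 10.07 in shGFP and 10.42 and 10.35 in parental cells. PFKM, the muscle form, read 9.59 and 9.41 in clone 1, 9.50 and 9.38 in clone 2, 10.63 and 10.60 in shGFP and 10.51 and 10.36 in parental cells. PFKL, the liver form, read 9.20 and 9.17 in clone 1, 9.57 and 9.62 in clone 2, 10.31 and 10.30 in shGFP and 10.58 and 10.44 in parental cells. Thus PFKP was high, and PFKM and PFKL low, on all clone arrays, with no overlap with the controls. Against shGFP the log2 differences were 1.18 for PFKP (SE 0.07, adjusted p = 1.1e-06), -1.14 for PFKM (SE 0.09, adjusted p = 5.2e-06) and -0.92 for PFKL (SE 0.08, adjusted p = 7.8e-06), all from limma. Within each array, the log2 value of PFKP minus that of PFKL moved by 2.10 from shGFP to the clones, and that of PFKP minus PFKM by 2.32, with SDs within a line of 0.05 and 0.06.

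Enolase also differed by gene. ENO2, the neuronal form, read 10.27 and 10.07 in clone 1, 10.73 and 10.61 in clone 2, 7.91 and 7.88 in shGFP and 8.32 and 8.16 in parental cells. All clone arrays were above all control arrays, and ENO2 was 5.75-fold higher than in shGFP (log2 difference 2.52, SE 0.09, adjusted p = 4.3e-08, limma). ENO1, the ubiquitous form, read 13.43 and 13.42 in clone 1, 13.25 and 13.28 in clone 2, 12.96 and 12.89 in shGFP and 13.28 and 13.20 in parental cells. ENO1 was higher than in shGFP by 0.42 (adjusted p = 0.00087, limma), but its clone and parental arrays overlapped, and the difference of 0.11 against parental cells did not pass (adjusted p = 0.24, limma).

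The other enzymes changed less. HK2, the inducible hexokinase that traps glucose in the cell, was 1.93-fold higher than in shGFP (log2 difference 0.95, SE 0.08, adjusted p = 7.1e-06, limma) and HK1, the constitutive form, 1.23-fold higher (0.30, SE 0.07, adjusted p = 0.0053, limma). ALDOC, the brain form of aldolase, was lower by -0.80 (SE 0.10, adjusted p = 9.8e-05, limma), while ALDOA differed by -0.17 and did not pass (adjusted p = 0.071, limma). GAPDH, PGK1 and PKM, which carry the late steps of the pathway, were higher by 0.32, 0.24 and 0.39 (adjusted p = 0.0037, 0.021 and 0.0014, limma). GPI and TPI1, which interconvert sugar phosphates, differed by 0.17 and 0.12 and did not pass (adjusted p = 0.075 and 0.17, limma), and a further probe set of TPI1 differed by 0.03 (adjusted p = 0.75, limma). With the replicate number as a block, GPI and ALDOA passed at the same differences (adjusted p = 0.037 and 0.033, limma).

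Small differences among these enzymes depended on the control. GAPDH and PKM, like ENO1, were higher than in shGFP but differed from parental cells by 0.14 and 0.09, which did not pass (adjusted p = 0.12 and 0.3, limma). GPI, TPI1 and ALDOA were lower than in parental cells, by -0.36, -0.31 and -0.35 (adjusted p = 0.0025, 0.0055 and 0.0021, limma). In contrast, LDHB, ENO2, PFKP, HK2, HK1, LDHA and PGK1 were higher, and PFKL, PFKM and ALDOC lower, against both controls. PGK1 lost its call against shGFP without clone 2 replicate 2, shGFP replicate 1 or shGFP replicate 2 (adjusted p = 0.051, 0.078 and 0.17, limma), and HK1 without shGFP replicate 2 (adjusted p = 0.06, limma).

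**Figure D1:**
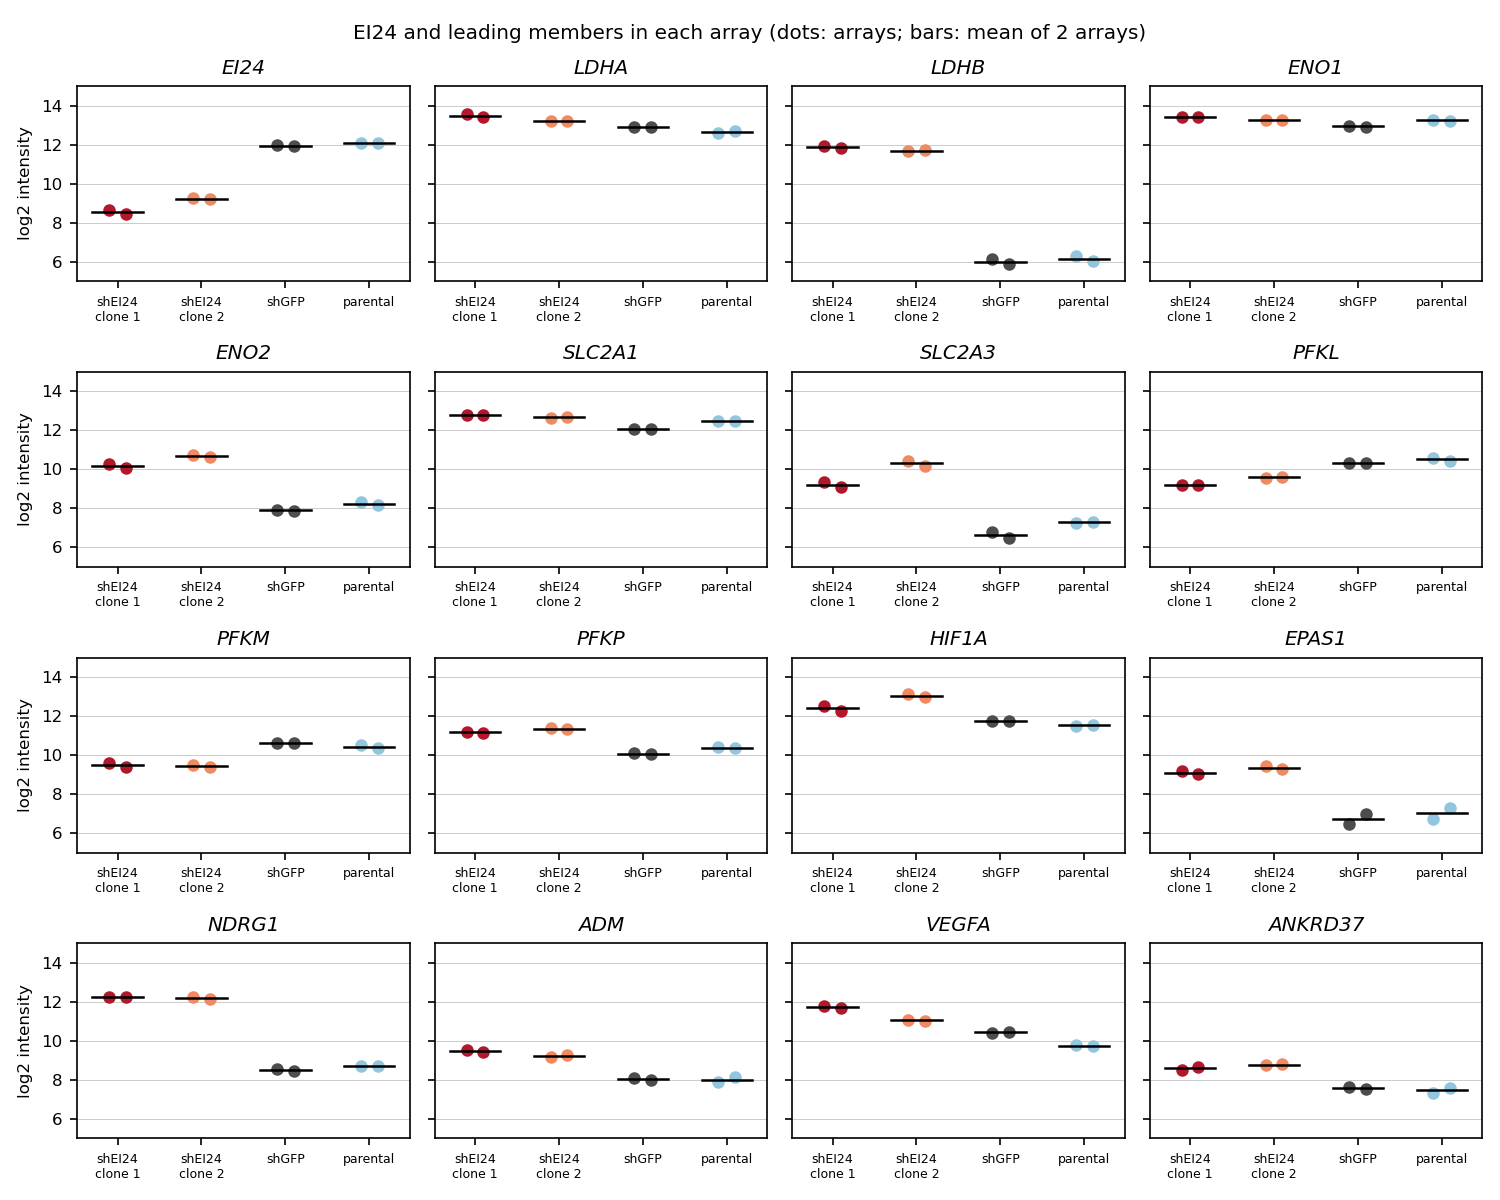
Log2 intensity (y axis) of EI24 and leading members on each of the 8 arrays, by line (x axis), with a dot for each array and a bar for the mean of a line. LDHB sits at 5.86 to 6.28 in the controls and 11.65 to 11.90 in the clones, while PFKM sits at 10.36 to 10.63 in the controls and 9.38 to 9.59 in the clones.

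Glucose enters the cells through SLC2A1 and SLC2A3, the carriers also known as GLUT1 and GLUT3. SLC2A3 read 9.34 and 9.08 in clone 1, 10.44 and 10.17 in clone 2, 6.80 and 6.50 in shGFP and 7.27 and 7.29 in parental cells. It was 8.62-fold higher in the clones than in shGFP (log2 difference 3.11, SE 0.12, adjusted p = 7e-08, limma), and clone 2 was above clone 1 on every array. SLC2A1 read 12.76 and 12.77 in clone 1, 12.64 and 12.67 in clone 2, 12.07 and 12.08 in shGFP and 12.49 and 12.47 in parental cells. All clone arrays of SLC2A1 were above all control arrays, by 0.63 against shGFP (SE 0.07, adjusted p = 5e-05) and by 0.22 against parental cells (adjusted p = 0.022), both from limma.

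Among the regulators of flux, PFKFB3 and PFKFB4 make and break fructose 2,6-bisphosphate, the activator of phosphofructokinase, and PDK1 switches off pyruvate dehydrogenase. PFKFB3 read 10.11 and 10.02 in clone 1, 9.94 and 9.95 in clone 2, 8.94 and 8.83 in shGFP and 9.11 and 9.02 in parental cells. PFKFB4 read 8.70 and 8.33 in clone 1, 7.87 and 7.90 in clone 2, 7.23 and 7.15 in shGFP and 7.45 and 7.38 in parental cells. Both lay above all control arrays on all clone arrays, with log2 differences against shGFP of 1.12 (SE 0.08, adjusted p = 2.4e-06) and 1.01 (SE 0.11, adjusted p = 3.5e-05) from limma. PDK1 differed from shGFP by 0.07 and did not pass (adjusted p = 0.57), but was higher than in parental cells by 0.71 (adjusted p = 0.00019, limma). The shGFP cells themselves were above parental cells for PDK1, by 0.64 (adjusted p = 0.0088, limma).

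Among the HIF alpha subunit genes both members were higher, while HIF3A, from the list of further HIF machinery, differed from shGFP by 0.04 and did not pass (adjusted p = 0.84, limma). HIF1A read 12.51 and 12.28 in clone 1, 13.12 and 12.96 in clone 2, 11.77 and 11.74 in shGFP and 11.51 and 11.53 in parental cells. EPAS1, which encodes the other main alpha subunit and is best known from endothelial cells, read 9.19 and 9.01 in clone 1, 9.43 and 9.26 in clone 2, 6.49 and 6.99 in shGFP and 6.72 and 7.30 in parental cells. Neither overlapped with the controls. Against shGFP, HIF1A was higher by 0.96 (SE 0.09, adjusted p = 1.7e-05, limma) and EPAS1 by 2.48 (SE 0.18, adjusted p = 3.7e-06, limma), a 5.58-fold difference from a level at percentile 30.5 in shGFP.

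EGLN1 and EGLN3 encode prolyl hydroxylases that mark the alpha subunits for breakdown, and both are themselves known HIF targets. EGLN1 read 10.08 and 10.29 in clone 1, 9.92 and 10.09 in clone 2, 8.93 and 9.00 in shGFP and 9.19 and 9.21 in parental cells. It was 2.19-fold higher than in shGFP, with no overlap with either control (log2 difference 1.13, SE 0.09, adjusted p = 6.4e-06, limma). EGLN3 was higher than in shGFP by 0.50 (SE 0.09, adjusted p = 0.0011, limma), but shGFP was below parental cells by -0.54 (adjusted p = 0.012, limma), and the clones differed from parental cells by -0.05, which did not pass (adjusted p = 0.66, limma).

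NDRG1 had the largest change among the other HIF targets. It encodes a stress-response protein whose level follows low oxygen in many cell types. NDRG1 read 12.27 and 12.24 in clone 1, 12.25 and 12.14 in clone 2, 8.55 and 8.46 in shGFP and 8.69 and 8.69 in parental cells. The clones were 13.2-fold above shGFP (log2 difference 3.72, SE 0.07, adjusted p = 1.9e-09, limma), and the clones themselves lay close together.

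BNIP3 and BNIP3L, which mark mitochondria for removal by autophagy, were higher by 0.81 (adjusted p = 2.2e-05) and 1.04 (SE 0.08, adjusted p = 4.1e-06) against shGFP, both from limma. BNIP3L read 12.19 and 12.11 in clone 1, 11.91 and 11.81 in clone 2, 10.97 and 10.97 in shGFP and 10.73 and 10.62 in parental cells. All its clone arrays lay above all control arrays. ANKRD37, a small ankyrin-repeat gene used as a marker of HIF activity, read 8.52 and 8.64 in clone 1, 8.74 and 8.82 in clone 2, 7.63 and 7.53 in shGFP and 7.34 and 7.58 in parental cells. Its clone arrays also stood clear of the controls, with a log2 difference of 1.10 against shGFP (SE 0.09, adjusted p = 9.2e-06, limma). The windows of BNIP3 at chr10:131981874-131982173 on the minus strand and of ANKRD37 at chr4:185396591-185396890 on the plus strand are shown as HIF targets whose matches lie close together upstream of the start, in the same format as those of the lactate dehydrogenase genes.
BNIP3: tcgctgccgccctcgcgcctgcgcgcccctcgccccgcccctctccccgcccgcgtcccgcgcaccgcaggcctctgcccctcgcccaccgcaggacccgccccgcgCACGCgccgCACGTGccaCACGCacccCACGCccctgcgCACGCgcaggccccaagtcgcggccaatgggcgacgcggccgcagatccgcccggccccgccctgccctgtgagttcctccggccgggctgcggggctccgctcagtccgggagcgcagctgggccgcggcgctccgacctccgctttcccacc
ANKRD37: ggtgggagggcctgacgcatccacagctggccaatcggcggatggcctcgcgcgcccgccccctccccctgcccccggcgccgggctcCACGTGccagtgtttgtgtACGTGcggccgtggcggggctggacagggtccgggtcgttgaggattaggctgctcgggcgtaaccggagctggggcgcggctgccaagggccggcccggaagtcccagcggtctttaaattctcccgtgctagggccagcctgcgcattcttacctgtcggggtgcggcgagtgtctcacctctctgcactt
The BNIP3 window held 6 matches from -143 to -104 and the ANKRD37 window 3 from -162 to -143, with a CACGTG in each counted on both strands. Other HIF targets of the set had fewer, with 1 match each for ADM, KDM3A and ANGPTL4 and 0 for MXI1. Matches were not confined to members that rose. Among those that fell, ALDOC had 5, with a CACGTG counted on both strands, PFKL 1 and PFKM 0. The BNIP3 window held 48 CpG dinucleotides, the most of any member window, and that of ANKRD37 30. The part of the matches in any change was not tested.

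The secreted factors of the set were higher too. ADM, the vasodilator peptide adrenomedullin, read 9.53 and 9.40 in clone 1, 9.17 and 9.28 in clone 2, 8.08 and 7.97 in shGFP and 7.87 and 8.14 in parental cells. ANGPTL4, an inhibitor of lipoprotein lipase, read 8.99 and 8.92 in clone 1, 7.82 and 8.14 in clone 2, 7.12 and 7.26 in shGFP and 7.27 and 7.47 in parental cells. Both stood above all control arrays, ANGPTL4 by less in clone 2 than in clone 1. Against shGFP, ADM was higher by 1.32 (SE 0.10, adjusted p = 4.2e-06) and ANGPTL4 by 1.28 (SE 0.11, adjusted p = 9.4e-06), both from limma. VEGFA, the main growth factor of blood vessels, lay at 11.03 to 11.79 on the clone arrays and 9.71 to 10.47 on the control arrays, and was higher by 0.95 against shGFP (SE 0.08, adjusted p = 6.7e-06) and by 1.65 against parental cells (adjusted p = 2.1e-07), both from limma. The shGFP cells were themselves above parental cells for VEGFA, by 0.70 (adjusted p = 0.0024, limma).

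Among the nuclear factors of the set, KDM3A, a histone demethylase, was higher by 0.76 (SE 0.11, adjusted p = 0.00039, limma). MXI1, an antagonist of MYC, differed from shGFP by -0.07 and did not pass (adjusted p = 0.42, limma), and was higher than in parental cells by 0.25 (adjusted p = 0.017, limma). The sign of the MXI1 difference from shGFP turned under a further quantile normalization, to 0.04, and GPI (0.28), TPI1 (0.22) and PDK1 (0.19) then passed as higher. No other member changed sign under that scaling or when each array was centred on its median.

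Some genes paired by related function changed by unequal amounts. Of 13 listed pairs 12 were measured, and in 6 of them the log2 differences of the partners against shGFP were at least 1 apart. The share of other gene pairs that far apart is not given here, so this count has no background. The within-array difference moved by 5.33 for LDHB minus LDHA (SD within a line 0.16), by 2.48 for SLC2A3 minus SLC2A1 (0.18), by 2.10 for ENO2 minus ENO1 (0.09) and by 1.52 for EPAS1 minus HIF1A (0.27). The remaining pairs at least 1 apart were those of PFKP with PFKL and PFKM, given above. Against parental cells the same pairs moved by 4.92, 2.26, 2.07 and 1.01, and those of PFKP by 1.99 and 1.84. BNIP3L minus BNIP3 moved by 0.23 (0.05). For PFKFB4 minus PFKFB3 the mean of -0.10 joined clones that went opposite ways: against shGFP, PFKFB4 and PFKFB3 differed by 1.33 and 1.18 in clone 1 and by 0.70 and 1.06 in clone 2. These are changes of each pair and do not say which form is more abundant, and they are descriptions with no test. In shGFP, LDHA, ENO1, SLC2A1 and HIF1A ranked at percentile 97.6 to 99.7, near the upper end of the range, where differences can be compressed. Such compression was not measured here. Their partners LDHB, ENO2, SLC2A3 and EPAS1 ranked at 18.6, 50.3, 29.1 and 30.5. The part of these levels in the unequal changes was not tested.

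**Figure D2:**
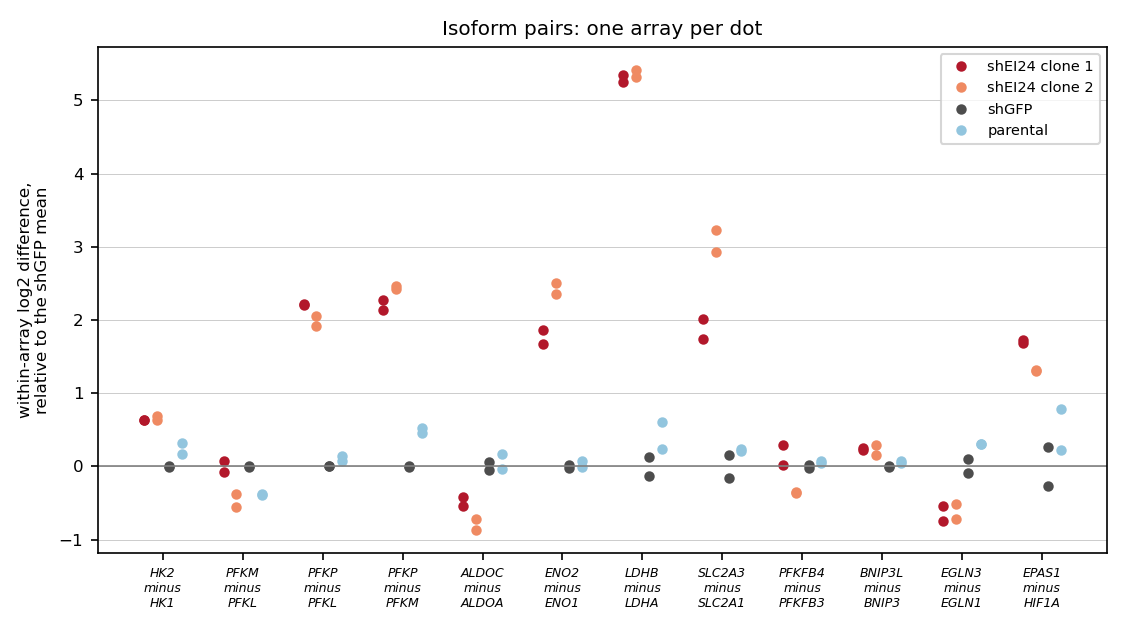
Within-array log2 difference of paired genes, relative to its shGFP mean (y axis), for the 12 measured pairs (x axis), with 1 dot for each array, coloured by line. The clone dots of LDHB minus LDHA lie about 5.33 above the shGFP mean, while those of PFKFB4 minus PFKFB3 lie at or above it in clone 1 and below it in clone 2.

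The clones were not alike for every member. Between clones 7 members passed, 3 higher and 4 lower in clone 1 (limma), against 9.29% and 5.88% of all genes. PFKFB4, VEGFA and ANGPTL4 were higher in clone 1, by 0.63, 0.67 and 0.98, and PFKL, ENO2, SLC2A3 and HIF1A were higher in clone 2, by the log2 differences -0.41, -0.50, -1.10 and -0.64 of clone 1 minus clone 2. For EI24 clone 1 lay below clone 2, with a difference of -0.68 (adjusted p = 0.0023, limma), and its part in these differences was not tested. With the replicate number as a block 12 members passed between clones, 8 of them higher in clone 1, and with a variance trend and robust fit 16. The shares of all genes between clones under these fits are not given here, so these counts cannot be read against them. Without clone 1 replicate 2 only 2 of the members that passed were lower in clone 1.

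The control lines differed as well. Between shGFP and parental cells 12 members passed (limma), 4 higher in shGFP and 8 lower, against 3.21% and 7.44% of all genes. PDK1, VEGFA, BNIP3 and MXI1 were higher in shGFP, by 0.32 to 0.70. HK2, GPI, PFKP, TPI1, ENO1, SLC2A1, SLC2A3 and EGLN3 were lower, by -0.63 to -0.31. For the alternative fits that follow, the shares of all genes called between these lines are not given here. Without shGFP replicate 1, shGFP replicate 2 or either parental array only 1 or 2 members passed, and without either clone 2 array 7, while a variance trend and robust fit called 20.

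Further genes of the pathway, were read from lists kept apart from the members, beside the 26.8% of all genes that were higher than in shGFP and the 29% that were lower. Of 28 measured genes of glycolysis and gluconeogenesis 9 were higher (32.1%), 7 lower (25%) and 12 did not pass, with a median log2 difference of 0.18, so these shares lay near those of all genes. FBP1, which runs the phosphofructokinase step backwards, differed by -3.99, PCK2, the mitochondrial carboxykinase of gluconeogenesis, by -2.42, PGM1, which links glycogen to glycolysis, by 2.55 and the carrier SLC16A7 by 2.76 (all adjusted p under 0.05, limma). PCK2 was also lower than in parental cells (adjusted p = 3.6e-05, limma), by less, since shGFP lay above parental cells by 1.42. Of 12 genes for pyruvate entry into mitochondria 6 were higher (50%) and 4 lower (33.3%), with a median of 0.15. Against parental cells 3 were higher (25%) and 4 lower (33.3%), near the 25.1% and 30.8% of all genes. PDP1, the phosphatase that switches pyruvate dehydrogenase on, was higher by 3.04, while the kinase PDK3 (-2.03) and the subunits DLD (-1.76) and PDHA1 (-1.08) were lower.

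Of 12 further genes of the HIF machinery 3 were higher (25%) and 5 lower (41.7%), with a median of -0.13 (all genes: 26.8%, 29% and 0.08). CITED2, which competes with HIF for its coactivators, was higher by 1.52, whereas VHL (-1.09), the coactivator CREBBP (-0.83) and ARNT (-0.68), the stable partner of the alpha subunits, were lower. Of 35 further HIF targets 19 were higher (54.3%), 8 lower (22.9%) and 8 did not pass, with a median of 0.54. LOX, a collagen crosslinker, was higher by 5.09 (it ranked at percentile 17.4 in shGFP), BHLHE40 by 2.57 and STC1 by 2.52, while STC2 was lower by -3.77. Against parental cells STC2 was lower by -2.41, since shGFP lay above parental cells by 1.36 (adjusted p = 0.0017, limma), and BHLHE40 and STC1 were higher by 1.77 and 2.15. In the pentose phosphate and serine branches, which draw carbon off glycolysis, 9 of 12 genes were lower (75%) and 1 higher (8.33%), with a median of -0.85. PHGDH, the first enzyme of serine synthesis, was lower by -3.18, SHMT1 by -1.19, TKT by -1.07 and RPE by -1.06. The size of the change in serine genes depended on the control, since shGFP lay above parental cells for PHGDH by 0.85, PSAT1 by 1.17, PSPH by 0.44 and SHMT2 by 0.34 (adjusted p = 0.0013, 0.00031, 0.018 and 0.038, limma). Against parental cells PHGDH was lower by -2.32, while PSAT1, lower than in shGFP by -0.71, was higher by 0.46 (adjusted p = 0.0011, limma). In that comparison the list had 8 lower (66.7%) and 2 higher genes (16.7%), with a median of -0.74. Of all genes 30.8% were lower and 25.1% higher than in parental cells.

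**Figure D3:**
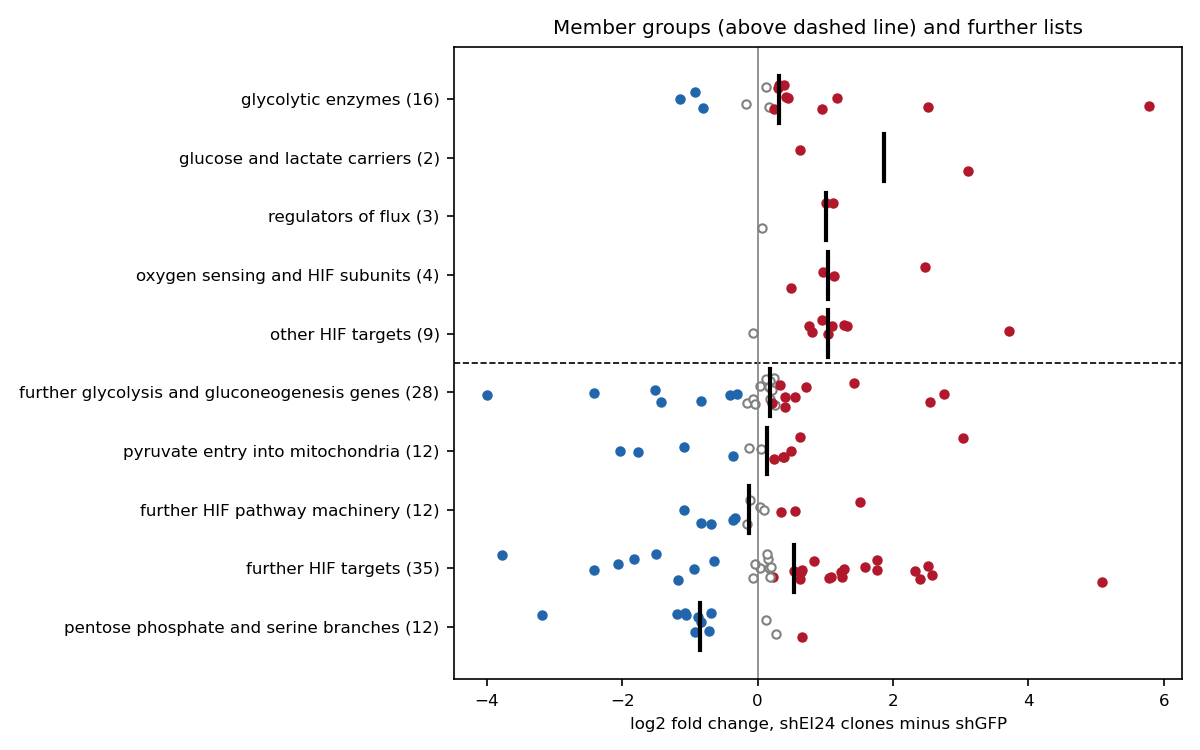
Log2 differences between the mean of the clones and shGFP (x axis) for the measured genes of each member role and each further list (y axis), with a dot for each gene (filled where it passed, red if higher and blue if lower) and a bar for the median of the group. The number of genes stands in brackets. The median is 1.04 for the other HIF targets among the members, 0.54 for the further HIF targets and -0.85 for the pentose phosphate and serine branches.

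Promoter windows were given for 30 of the 34 measured members, all but SLC2A3, NDRG1, VEGFA and BNIP3L. ACGTG or GCGTG was present on either strand in 23 of the 30 (76.7%), in 56.7% of the 14239 tested genes with a window and in 48.4% of all 27305 windows. ACGTG alone was in 12 members (40%) against 24% of tested genes and 21.6% of all windows, and GCGTG in 16 (53.3%) against 44.7% and 36.3%. CACGTG, an E-box that MYC also binds and that contains ACGTG, was in 5 members (16.7%) against 8.88% of tested genes. Members also had more CpG dinucleotides per window, with a median of 29.5 against 23 in tested genes, and both core motifs contain a CpG. The members were listed partly as known HIF targets, so these shares are a description of the list.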

How the data were processed

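Total RNA of 8 ZR-75-1 samples was labelled and hybridised to Affymetrix arrays. The authors deposited 1 table of log2 intensities per transcript cluster. GCOS and RMA are named in the submitters' processing notes. Their versions and the genome build were not given in the sources used here. With RMA the background is subtracted, arrays are brought to 1 distribution by quantiles and probes are summarized, and array medians were 7.28 to 7.39. Of 33297 transcript clusters, 19460 had 1 symbol in GEO's platform annotation, 1754 had several and 12083 are unnamed here. The brightest cluster of each gene was kept, which left 18417 genes.

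Line means were fitted with limma 3.58.1 (lmFit, eBayes) in R 4.3.3 over all 8 arrays, with 4 residual degrees of freedom. P-values were adjusted by Benjamini-Hochberg over all genes at a threshold of 0.05. The main comparison was the mean of both clones minus shGFP. In the sample titles the leading number was read as the clone, and the number after it as the replicate. Array values are printed for members that passed with at least a 2-fold change, for pairs of genes whose changes differed by at least 1 on the log2 scale, and for EI24, and up to 4 genes of each further list are named by size of change. HIF3A, PSAT1, PSPH and SHMT2 were named after their values were seen. The members and lists were chosen with earlier results of these data known. Replicates 1 and 2 differed in the same direction in all line pairs (correlations of their differences across genes 0.25 to 0.59), so same-numbered arrays deviated together, although no label says what the number marks. The main fit has no replicate block, so its errors and p-values do not use the pairing, and the block was fitted as an alternative. The procedure was also run on simulated data in which all arrays varied independently. That setting lacks the shared deviation of same-numbered arrays, so it does not cover it. Alternatives changed the control, the replicate block, normalization, variance model, gene filter, cluster choice, test and arrays.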

Additional observations from a re-analysis of the deposited data

Results flagged for a closer look

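Members whose log2 intensity differed between clones (clone 1 minus clone 2, limma, adjusted over all genes) are given because both clones carry an shRNA against EI24, whose own level differed between them by -0.68. Of the members 8.82% were higher and 11.8% lower in clone 1, against 9.29% and 5.88% of all genes. Differences between clones were thus not particular to the members. The differences were -1.10 for SLC2A3 (SE 0.14, adjusted p = 0.0015), 0.98 for ANGPTL4 (SE 0.13, adjusted p = 0.0015) and 0.67 for VEGFA (SE 0.09, adjusted p = 0.0017), from limma. Smaller ones were -0.64 for HIF1A (SE 0.10, adjusted p = 0.0041), 0.63 for PFKFB4 (SE 0.12, adjusted p = 0.0094), -0.50 for ENO2 (SE 0.10, adjusted p = 0.014) and -0.41 for PFKL (SE 0.09, adjusted p = 0.014), from limma. With 2 arrays for each line, no array could be tested as standing apart.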

How the results depend on the processing

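Of 34 members, 18 kept their side of the threshold and direction under all 20 alternatives run: HK2, PFKL, PFKM, PFKP, ALDOC, ENO2, LDHA, LDHB, SLC2A3, PFKFB3, EGLN1, EPAS1, NDRG1, ADM, BNIP3, BNIP3L, ANKRD37 and KDM3A. Some alternatives could hardly change a member. Taking the second brightest cluster replaced the values of TPI1 alone among the members. Leaving out a parental array removed no value from the difference to shGFP. With parental cells as the control 6 members were lower, and the difference turned for GPI (-0.36), TPI1 (-0.31), EGLN3 (-0.05) and MXI1 (0.25). With both controls pooled it turned for GPI (-0.09), TPI1 (-0.09) and MXI1 (0.09), as it did with each line as 1 replicate. That last fit called 6166 genes, 2743 higher and 3423 lower, and 10 further glycolysis, 6 pyruvate entry and 5 HIF machinery genes. In it HK1, GAPDH, PGK1, ENO1, PKM, SLC2A1, EGLN3 and ANGPTL4 lost their calls, and it used fewer samples. With the replicate block 12 members passed between clones, 8 higher in clone 1, and with a variance trend and robust fit 16, 11 higher. For the alternatives, no shares of all genes are given between clones or between shGFP and parental cells. Against shGFP the block brought GPI and ALDOA past the threshold and changed no other member's call. GPI and ALDOA also passed without the dimmest 25% of genes and, with TPI1, in the trend and robust fit. ALDOA also passed with parental or pooled controls and in the adjusted t-test, and PDK1 with parental or pooled controls. The trend and robust fit gave 20 members between shGFP and parental cells, 8 higher. A further quantile normalization turned MXI1 (0.04), brought GPI, TPI1 and PDK1 past the threshold and gave 5 members higher in clone 1 than in clone 2. Without the dimmest 25% of genes 6 were higher. Centring on the array median left 7 members between shGFP and parental cells, 2 higher and 5 lower, and PGK1 lost its call. The methods' t-test took the 4 clone arrays and the 2 shGFP arrays as separate replicates, although arrays of a line are duplicates. It gave 25 higher and 4 lower members at its unadjusted threshold, for which no share of all genes is given here. After adjustment it called 3203 genes higher, and PGK1, PKM, PFKFB4, HIF1A, VEGFA and ANGPTL4 lost their calls. With ACGTG alone 12 promoters matched. The cause of these shifts was not tested.

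Leaving out 1 array at a time, so that a lone array is assumed to vary like the others, gave 27 to 29 members called between clones and shGFP, 24 to 26 higher and 3 lower. All genes ranged from 7972 to 10977 called, 3633 to 5588 higher and 4339 to 5389 lower. The further lists ranged from 12 to 18 for glycolysis, 8 to 10 for pyruvate entry, 6 to 8 for HIF machinery, 26 to 28 for HIF targets and 10 to 11 for the pentose phosphate and serine branches. Clone 1 against shGFP gave 28 to 30 members, 25 to 27 higher and 3 lower, and clone 2 gave 23 to 28, 20 to 25 higher and 3 lower. Between clones 5 to 8 passed, 3 to 4 higher and 2 to 4 lower. Between shGFP and parental cells 1 to 11 passed, 1 to 4 higher and 0 to 7 lower by limma, and the fits with 0 lower had 10 lower at an unadjusted p under 0.05. The isoform pairs at least 1 apart stayed at 6 in every setting run. The alignment of isoform proteins was not run. Bright genes such as GAPDH and dim ones such as LDHB in controls lie near the ends of the intensity range, where differences can be compressed.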
